A study of Mus musculus with 2 samples.

Results

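The MYC, MAX and MXD network is a family of transcription factors that pair through a shared basic helix-loop-helix leucine zipper. It is followed here through 10 genes, *Myc*, *Mycl*, *Max*, *Mxd1*, *Mxd3*, *Mxd4*, *Mxi1*, *Mnt*, *Mga* and *Mlx*, of the 27998 genes listed in the data. The genes were taken by name, as the members of the network, and all 10 were found. MYC and MYCL bind DNA and activate genes only when paired with MAX, at a short motif called the E-box. MXD1, MXD3, MXD4, MXI1 and MNT compete for MAX and repress genes through the SIN3 corepressors, MGA brings MAX into a Polycomb complex, and MLX is a second partner for some of the repressors and for the glucose-sensing Mondo proteins. Small cell lung cancer is known for gains of a *MYC* family gene and, less often, for loss of *MAX* or *MGA*.

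Single-cell RNA-seq was done on 1 lung tumor from each of 2 mice, TKO1 and TKO2, with 1 library per tumor. Both mice carried the same triple knockout, Rb-/-; Trp53-/-; Rbl2-/-, and the Rosa26 membrane-Tomato or membrane-GFP reporter, on a mixed C57BL/6, 129/SVJ and 129/SvOla background. Both were harvested 7 months after induction with Adeno-CMV-Cre, at an age of 8 to 9 months. The genotype label of TKO1 ends in a few further characters, read here as a typing error. The groups thus share the listed alleles, agent and time, though mice of a mixed background need not be identical elsewhere, and no untreated or wild-type sample was analysed here. Cre came from a virus with a promoter that is active in many cell types, so the genotype does not say which of the sorted live cells had recombined. With 1 library per tumor, tumor, mouse and library cannot be told apart, and no p-value is given between the tumors.

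A barcode was retained when more than 500 genes were detected in it, which kept 3193 of 4514 barcodes of TKO1 and 3568 of 3816 of TKO2. Retained cells held a median of 1223 unique molecular identifiers (UMIs) in TKO1 and 1960 in TKO2, and 11 of their barcodes occurred in both libraries. Clusters with neuroendocrine markers are called tumor cells (2990 and 3380 cells). Cells with macrophage markers are called macrophage-like (98 and 122 cells), and cells with club cell markers are called club-like (105 cells, TKO1 only). Of the 19 neuroendocrine markers, 0 were at 0 in the tumor cells of either tumor, and their summed level was 23841 CPM (per-million level, the UMIs scaled to the total of the class) in TKO1 and 2252 CPM in TKO2. Listed markers of other types were among the 10 leading genes of 3 tumor cell clusters. In TKO1 these were ciliated cell markers in cluster 1 (502 cells) and the fibroblast marker *Dcn* in cluster 3 (386 cells). In TKO2 it was the ciliated cell marker *Tppp3* in cluster 6 (263 cells), where the listed neuroendocrine marker *Stmn2* was among the 10 leading genes too. Such clusters are called led by other types below, though *Dcn* and *Tppp3* came after genes outside the marker lists. At least 4-fold above the other cells were 4 of 8 ciliated markers in cluster 1 of TKO1. In cluster 3 it was 1 of 6 fibroblast markers, and in cluster 6 of TKO2 1 of 8 ciliated markers and 1 of 19 neuroendocrine markers. All 3 were named tumor cells, with 16, 15 and 11 neuroendocrine markers at least 2-fold above macrophage-like cells, so the name does not make them other cell types. *Vwf*, an endothelial gene outside the marker lists and named after its values were seen, led cluster 0 of TKO2 (559 cells). The 6 endothelial markers summed to 77.6 CPM in the tumor cells of TKO2, with 4 at 0, and to 2.84 CPM in TKO1, with 2 at 0. The part of other cell types in the values below was not tested, and the counts between the tumors, in the other cells and with cycling are also given without the 3 clusters led by listed markers. The macrophage-like cells also held T and NK cell markers, with 0 of 7 at 0 in TKO2 (1104 CPM summed) and 1 of 7 in TKO1 (378 CPM). Their dendritic marker list stood at 3104 CPM in TKO2, with 1 of 5 at 0, and at 2454 CPM in TKO1, with 3 of 5 at 0. In the tumor cells the dendritic list stood at 342 CPM in TKO2 and 518 CPM in TKO1. The neutrophil list of the macrophage-like cells stood at 194 CPM in TKO2 and 874 CPM in TKO1, with 0 of 5 at 0 in both. The club-like cells also held 6 of 7 markers of alveolar type 2 cells, with a summed level of 3071 CPM, and all 6 of alveolar type 1 cells, at 1469.5 CPM. Of the deleted genes, *Rb1* was at 77.1 and 15.2 CPM, *Trp53* at 49.0 and 63.0 CPM and *Rbl2* at 9.46 and 1.80 CPM in the tumor cells of TKO1 and TKO2, though summed gene counts cannot tell recombined from intact alleles.

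Motifs that the network and the cell cycle factors of the E2F family bind were looked for next to the start sites. Windows of 300 bases, from 250 before to 50 after a start site, were taken from RefSeq (GRCm38.p6), which gave one for 9 of the 10 genes. The E-box searched, CACGTG, reads the same on both strands and was found in the windows of *Max*, *Mxd4*, *Mnt* and *Mlx*, 4 of 9 genes, while 7.15% of all 32851 windows held it. The units differ, since the 9 genes have 11 windows and a gene with several has more chances of a match. The E2F motif searched was TTCCCGC, on either strand, with no overlap with the E-box. Of the 9 genes, 1 held it, *Mxd3*, and 4.60% of all windows did. The sites are shown because the E-box is the network's own motif and because *Mxd3* was higher in the cycling cells of both tumors. Whether the E2F motif bears on that was not tested. Capitals mark the motif, each sequence reads 5′ to 3′ on the strand of its gene, and in *Mxd3* the motif lies on the opposite strand, so that its reverse complement is in capitals.
*Max*, chr12:76962234-76962263: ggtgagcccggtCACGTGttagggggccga
*Mxd4*, chr5:34187912-34187941: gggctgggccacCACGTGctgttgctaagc
*Mnt*, chr11:74830789-74830818: ccccacccaagcCACGTGtgcgcgcgcggt
*Mlx*, chr11:101087238-101087267: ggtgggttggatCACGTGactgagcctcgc
*Mxd3*, chr13:55329832-55329931: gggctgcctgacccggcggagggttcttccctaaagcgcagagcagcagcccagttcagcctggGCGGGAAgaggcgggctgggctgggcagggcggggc
The E-box began 3 bases before the start site in *Max*, 40 in *Mlx*, 123 in *Mnt* and 219 in *Mxd4*, and the E2F motif of *Mxd3* began 136 bases before it. The windows are on the minus strand for *Max*, *Mxd3* and *Mxd4* and on the plus strand for *Mnt* and *Mlx*. A match is a run of letters, not a bound site.

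The first question was which genes of the network differed between the tumor cells of TKO1 and TKO2. Of the 10 genes, 4 were at least 2-fold higher in TKO1, the activators *Myc* and *Mycl* and the MAX partners *Mxd1* and *Mxd4*, and 0 were at least 2-fold higher in TKO2. Over the 12927 genes with at least 10 UMIs, 31.2% were at least 2-fold higher in TKO1 and 12.3% in TKO2, so a lean toward TKO1 is also what all genes showed. The median log2 ratio of TKO1 to TKO2 over these genes was 0.37, and the share of tumor cell UMIs in ribosomal protein genes was 10.6% in TKO1 and 23.0% in TKO2. With TMM factors (edgeR's scaling, which sets the typical gene to no difference), the median was 0.01 and the background was 23.5% and 18.5%. The 4 genes past 2-fold were then the same, with *Mxd1* (log2 ratio 1.06) and *Mxd4* (1.05) only just past it. The 4 genes were also the same without the 3 clusters led by listed markers of other types, and without the cluster led by *Vwf*.

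**Figure D1:**
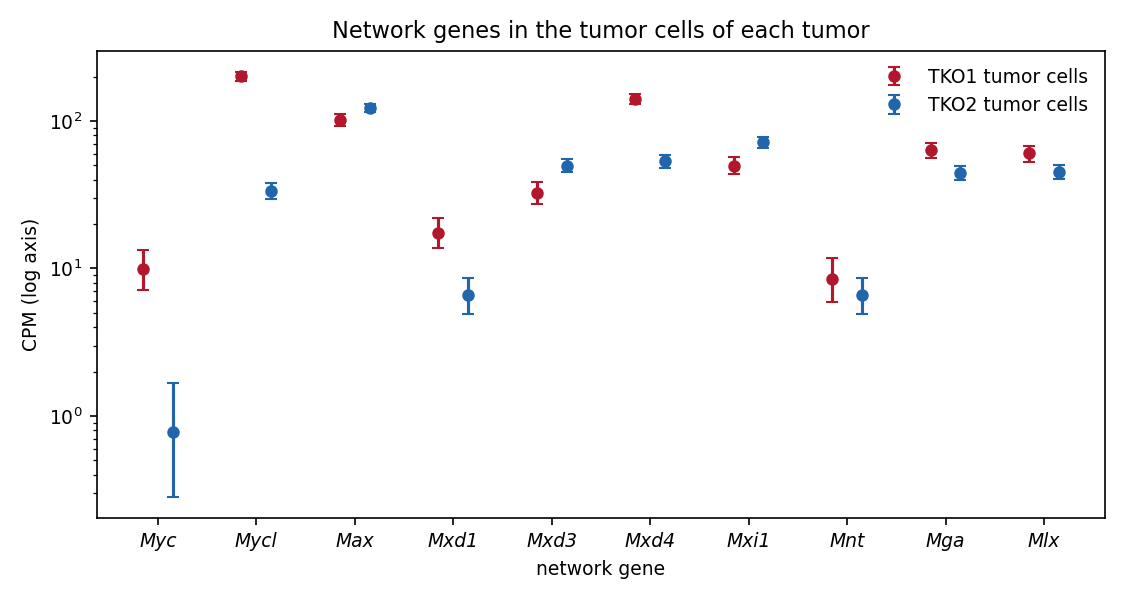
Level of each network gene in the tumor cells of TKO1 (red) and TKO2 (blue), in CPM on a log axis. Points are summed UMIs scaled by the total of the tumor cells and bars are exact 95% Poisson intervals, which cover counting error only. *Myc*, *Mycl*, *Mxd1* and *Mxd4* lie higher in TKO1, and *Mxd3*, *Mxi1* and *Max* lie higher in TKO2.

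*Myc* (ENSMUSG00000022346, chromosome 15, 61985391 to 61990374 in GRCm38, as for all positions that follow) is the broadly acting activator of growth genes. It had 42 UMIs in the tumor cells of TKO1, 9.94 CPM (95% interval 7.16 to 13.4), and 6 UMIs in TKO2, 0.773 CPM (0.284 to 1.68). The intervals do not overlap, the log2 ratio was 3.68 (2.44 to 5.21), and both levels are low. In TKO1 it was highest, at 22.5 CPM from 15 UMIs, in cluster 1, named tumor cells by its neuroendocrine markers. The leading genes of that cluster held ciliated cell markers and also genes outside the marker lists. *Trib3*, *Ddit3* and *Nupr1*, chosen after their values were seen, were among the latter. Whether the *Myc* UMIs came from ciliated cells was not tested. The log2 ratio was 2.92 without the clusters led by other types. Over all retained cells of each tumor it was 2.23.

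*Mycl* (ENSMUSG00000028654, chromosome 4, 122995652 to 123002485), the MYC family member named for lung cancer, had 850 UMIs in TKO1, 201 CPM (188 to 215), and 262 UMIs in TKO2, 33.8 CPM (29.8 to 38.1). The log2 ratio was 2.57 (2.37 to 2.78), and the level of TKO1 was uneven across its clusters. In TKO1, cluster 6 had 1166 CPM and cluster 5 had 436 CPM, while the other 5 clusters ran from 25.5 to 70.7 CPM. The 9 clusters of TKO2 ran from 16.8 to 48.8 CPM, so the ranges of the tumors overlap. Without cluster 6, which had *Mycl* among its 10 leading genes, the level of TKO1 was 110 CPM and the log2 ratio 1.70 (1.47 to 1.93). *Mycn*, the other family member and not counted among the 10, stood the other way, at 12.5 CPM in TKO1 and 2879 CPM in TKO2.

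*Max* (ENSMUSG00000059436, chromosome 12, 76937269 to 76962201), the obligate partner, was at 101 CPM (91.9 to 111) in TKO1 and 123 CPM (115 to 131) in TKO2. The log2 ratio was -0.28 (-0.44 to -0.11), and -0.63 with TMM factors. No cluster of either tumor lacked it, with 76.9 to 141 CPM over the 7 clusters of TKO1 and 87.2 to 150 CPM over the 9 of TKO2.

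The MXD repressors and *Mxi1* did not differ in a common direction. *Mxd1* (ENSMUSG00000001156, chromosome 6, 86647042 to 86669161), usually linked to differentiation, was at 17.5 CPM (13.7 to 22.0) in TKO1 and 6.57 CPM (4.89 to 8.64) in TKO2, a log2 ratio of 1.41 (0.88 to 1.96). *Mxd4* (ENSMUSG00000037235, chromosome 5, 34173883 to 34187720), found in many resting tissues, stood at 141 CPM (130 to 153) in TKO1 against 53.4 CPM (48.3 to 58.8) in TKO2, a log2 ratio of 1.40 (1.22 to 1.59). The clusters of *Mxd4* were apart as well, at 107 to 174 CPM in TKO1 and 25.2 to 90.0 CPM in TKO2. In the opposite direction, *Mxd3* (ENSMUSG00000021485, chromosome 13, 55325168 to 55329823) was lower in TKO1, with 32.4 CPM (27.2 to 38.3) against 49.9 CPM (45.0 to 55.1), a log2 ratio of -0.62 (-0.91 to -0.34). *Mxi1* (ENSMUSG00000025025, chromosome 19, 53310518 to 53375810) stood at 49.9 CPM (43.4 to 57.1) in TKO1, below the 71.7 CPM (65.8 to 77.9) of TKO2, a log2 ratio of -0.52 (-0.76 to -0.29). Neither reached 2-fold, also with TMM factors (-0.98 and -0.87), and *Mxd3* was at -0.25 without the clusters led by other types.

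*Mnt*, *Mga* and *Mlx* differed less. *Mnt* (ENSMUSG00000000282, chromosome 11, 74830920 to 74845725), a constant antagonist of MYC, had 8.52 CPM (5.96 to 11.8) in TKO1 and 6.57 CPM (4.89 to 8.64) in TKO2, and the interval of its log2 ratio held 0 (0.37, -0.28 to 1.02). *Mga* (ENSMUSG00000033943, chromosome 2, 119897228 to 119969581) reached 63.2 CPM (55.8 to 71.2) in TKO1, and 44.6 CPM (40.0 to 49.5) in TKO2, a log2 ratio of 0.50 (0.27 to 0.74). *Mlx* (ENSMUSG00000017801, chromosome 11, 101087277 to 101092207) was at 60.3 CPM (53.1 to 68.2) and, in TKO2, at 45.0 CPM (40.4 to 49.95), a log2 ratio of 0.42 (0.18 to 0.66). Relative to the median of all genes, these 3 ratios were 0.01, 0.14 and 0.06, so they lay close to what the typical gene showed. Exons of *Mlx* overlap those of *Psmc3ip* on the opposite strand, as those of *Mxd4* do with *Gm42846* and those of *Mxi1* with *Gm10197*. The strand setting of the counting is not given in the sources used here, so reads of such pairs may not be told apart.

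Over the clusters of tumor cells, 3 of the 10 genes had ranges that did not overlap between the tumors, *Myc*, *Mxd1* and *Mxd4*, each higher in TKO1. The same held for 17.1% of all 12927 genes. *Myc* ran from 3.63 to 22.5 CPM in TKO1 and from 0 to 1.71 CPM in TKO2, and *Mxd1* from 15.0 to 23.6 CPM and from 0 to 12.3 CPM. Cluster 9 of TKO2 had 0 UMIs of both genes, and its limit of 3 UMIs is 17.6 CPM. That is above the lowest cluster of TKO1 for each gene, 3.63 CPM from 3 UMIs and 15.0 CPM from 10 UMIs. With that limit in place of 0, only *Mxd4* of the 3 genes stays apart. At the finer resolution of 1.2, with more and smaller clusters, 1 gene of the 10 had ranges apart, and the all-gene share there is not given. Clusters were found from the same cells, with the network's genes kept out of the genes used, so their ranges describe spread and are not replicates.

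**Figure D2:**
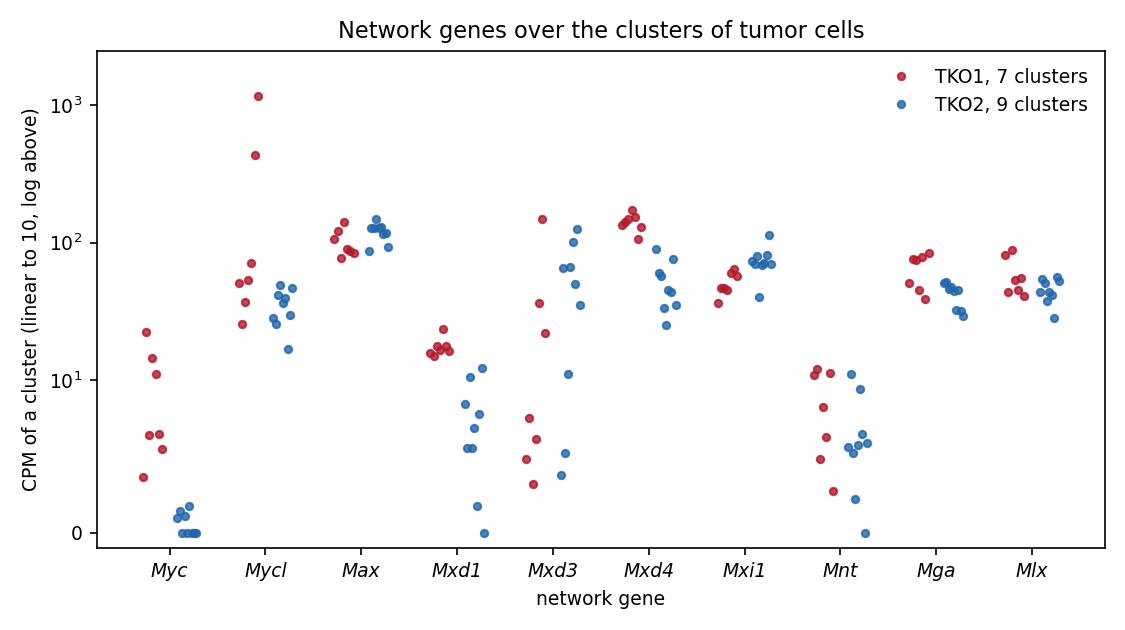
CPM of each network gene in each cluster of tumor cells, 7 clusters of TKO1 (red) and 9 of TKO2 (blue); the axis is linear to 10 and logarithmic above. The 2 highest points are *Mycl* in clusters 6 and 5 of TKO1, at 1166 and 436 CPM, and the points of *Mxd3* run from 3.20 to 148 CPM in TKO1.

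Depth differs between the tumors, so shares of cells with a UMI are given at a common 1000 UMIs per cell, drawn at random, with 2150 tumor cells of TKO1 and 3019 of TKO2 deep enough (840 and 361 were left out). Of the 10 genes, 6 were seen in at least 5% of the tumor cells of a tumor, *Mycl*, *Max*, *Mxd4*, *Mxi1*, *Mga* and *Mlx*. The same share over all genes is not given here, so this count describes the network's genes alone. *Mycl* was seen in 10.0% of the cells of TKO1 (exact Clopper-Pearson interval 8.81 to 11.4) and 3.28% of TKO2 (2.67 to 3.98), and in 11.7% and 7.10% before thinning. In macrophage-like cells, 2.44% (0.297 to 8.53) and 0 of 113 cells, with an interval that ends at 3.21%, held it. *Mxd4* was seen in 12.05% (10.7 to 13.5) and 4.97% (4.22 to 5.80) of tumor cells, against 9.76% (4.31 to 18.3) and 3.54% (0.973 to 8.82) of macrophage-like cells. *Max* was seen in 9.26% (8.06 to 10.6) and 11.6% (10.4 to 12.8), and *Myc* in 0.977% (0.606 to 1.49) and 0.132% (0.0361 to 0.339). Before thinning, these shares were 14.9% and 10.3% for *Mxd4*, 12.1% and 22.3% for *Max* and 1.17% and 0.148% for *Myc*. The deep enough tumor cells had a median of 1393 and 2108 UMIs, and the macrophage-like cells 1433 and 1711, before thinning.

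The next question was how the network stood in the other cells of the same tumors. Few UMIs stand behind these levels, since the macrophage-like cells hold 143014 and 226494 UMIs in all and the club-like cells 196671. Markers of tumor cells were counted there too. Neuroendocrine markers with at least 100 CPM in tumor cells stood at a median of 19.6% of the tumor level in the macrophage-like cells of TKO1 (15 markers, 8.31 to 39.1%), 29.6% in those of TKO2 (8 markers, 20.01 to 39.96%) and 29.7% in the club-like cells (15 markers, 17.8 to 62.3%). *Mycn* in the macrophage-like cells of TKO2 stood at 25.6%. A network gene within or below these ranges is not read as expressed by these cells. Nor is it read as absent, since the upper end of a range is set by the highest marker. The source of its UMIs was not tested.

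In macrophage-like cells, 2 of the 10 genes were at least 2-fold higher than in tumor cells in TKO1 (*Myc* and *Mnt*), where 12.3% of 11913 genes were, and 2 in TKO2 (*Myc* and *Mxd1*), where 16% of 11983 genes were. At least 2-fold lower were 2 genes in TKO1 (*Mycl* and *Mxi1*), against 22.1% of all genes, and 4 in TKO2 (*Mycl*, *Mxd3*, *Mga* and *Mlx*), against 19.9%. *Myc* and *Mycl* were past 2-fold the same way in both tumors, and so was *Mxd3*, lower, without the 3 tumor clusters led by other types. With barcodes of more than 200 genes, *Myc* in TKO1 (-0.84) and *Mxd1* in TKO2 (-0.48) turned direction. TMM factors raised every ratio by 0.30 in TKO1 and 0.25 in TKO2 on the log2 scale, which left *Mxi1* in TKO1 and *Mlx* in TKO2 short of 2-fold and changed no other of these calls. The all-gene shares were then 16% higher and 16.2% lower in TKO1, and 19.1% and 14.5% in TKO2. *Myc* had 7 UMIs in the macrophage-like cells of TKO2, 30.9 CPM (12.4 to 63.7), against 0.773 CPM in the tumor cells, a log2 ratio of 5.32 (3.52 to 7.17). In TKO1 it had 3 UMIs, 20.98 CPM (4.33 to 61.3), and the interval of the ratio held 0 (1.08, -1.26 to 2.72). *Mycl* had 5 UMIs in TKO1 (35.0 CPM, 11.4 to 81.6) and 1 in TKO2 (4.42 CPM, 0.112 to 24.6), with log2 ratios of -2.52 (-4.15 to -1.30) and -2.94 (-8.24 to -0.44). Those are 17.4% and 13.1% of the tumor levels, within the range of the neuroendocrine markers in TKO1 and below it in TKO2.

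*Mxd1* was at 28.0 CPM (7.62 to 71.6) in the macrophage-like cells of TKO1 and 26.5 CPM (9.72 to 57.7) in those of TKO2, from 4 and 6 UMIs. Its log2 ratio to tumor cells was 0.68 (-1.24 to 2.09) in TKO1 and 2.01 (0.50 to 3.23) in TKO2. *Mxd3* had 0 UMIs in TKO1, with an interval that ends at 25.8 CPM and at a log2 ratio of -0.31. In TKO2 it had 3 UMIs, at 26.6% of the tumor level, within the range of the neuroendocrine markers. *Mga* in TKO2, at 39.6%, lay within that range too. *Max* had 76.9 CPM (38.4 to 138) and 132 CPM (89.4 to 189), and its interval of the log2 ratio held 0 in both (-0.40, -1.41 to 0.46, and 0.11, -0.46 to 0.64). The intervals also held 0 in both tumors for *Mxd4*, *Mxi1*, *Mnt*, *Mga* and *Mlx*, so for these, including those past 2-fold, no difference was detectable at this depth.

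**Figure D3:**
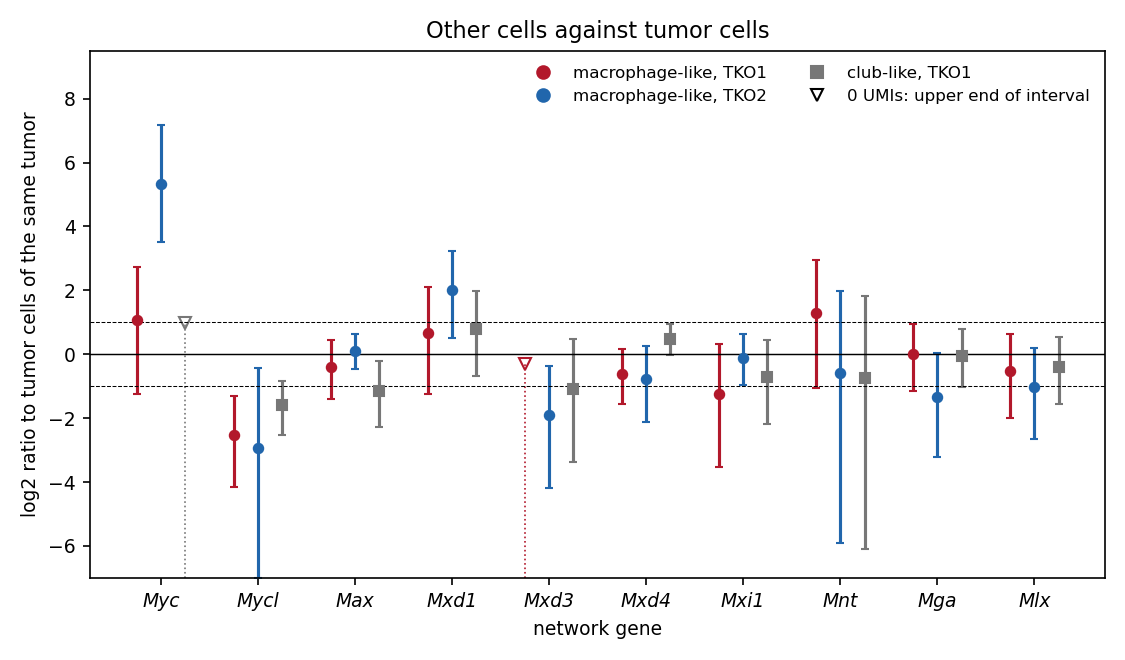
Log2 ratio of each network gene in macrophage-like cells (circles, TKO1 red and TKO2 blue) and club-like cells (grey squares, TKO1) to the tumor cells of the same tumor, with exact 95% intervals that cover counting error only. Dashed lines mark 2-fold, open triangles mark the upper end of the interval where a gene had 0 UMIs, and the interval of *Mycl* in TKO2 runs below the axis to -8.24. *Myc* in TKO2 stands highest at 5.32, and *Mycl* is below 0 in all 3 groups.

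In the club-like cells of TKO1, 3 of the 10 genes were at least 2-fold lower than in tumor cells, *Mycl*, *Max* and *Mxd3*, where 26% of 11808 genes were, and 0 were at least 2-fold higher, where 8.38% were. Both counts turn on the scaling. TMM factors raised every ratio by 0.52, and then 1 gene was at least 2-fold lower (*Mycl*, -1.09) and 2 were at least 2-fold higher (*Mxd1*, 1.32, and *Mxd4*, 1.01), against 12.7% and 14.4% of all genes. Without the tumor clusters led by other types, 2 of the 10 were past 2-fold, *Mycl* and *Mxd3*, and no all-gene share is given for that setting. *Max* had 9 UMIs, 45.8 CPM (20.9 to 86.9), a log2 ratio of -1.15 (-2.28 to -0.21), and *Mycl* had 13 UMIs, 66.1 CPM (35.2 to 113), a log2 ratio of -1.61 (-2.52 to -0.82). Those are 45.2% and 32.9% of the tumor levels, and *Mxd3*, with 3 UMIs, stood at 47.1%. All lay within the range of the neuroendocrine markers in these cells, as did *Mxi1* (61.1%) and *Mnt* (59.7%). Each of these genes was above the marker median of 29.7%, so the range does not show that club-like cells lack them. *Mxd4* had its highest level of the named groups here, 198 CPM (141 to 271) from 39 UMIs, though its log2 ratio of 0.49 had an interval that held 0 (-0.01 to 0.96). *Myc* had 0 UMIs, with an interval that ends at 18.8 CPM, more than the 9.94 CPM of tumor cells, so a lower level was not detectable. The interval of *Mxd3* held 0 (-1.09, -3.38 to 0.49), as did those of the other 5 genes, which had 1 to 12 UMIs.

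The last comparison was between cycling and non-cycling tumor cells, made within each tumor and the only one tested here. A tumor cell, thinned to 1000 UMIs, was called cycling with 4 or more UMIs of 54 cell cycle genes and non-cycling with 0 or 1. That gave 622 cycling and 965 non-cycling cells in TKO1, with 563 between, and 1857, 453 and 709 in TKO2. The classes are ranges of a score and not cell types, with 220 and 146 cells of TKO1 and 348 and 274 cells of TKO2 at 3 and 4 UMIs. None of the 10 genes is among the 54. UMIs were summed per class and tumor and tested with edgeR's quasi-likelihood test with the tumor as a term, which leaves 1 residual degree of freedom, so most of the spread is borrowed from all genes. Of 9492 genes tested, 4.53% were called higher in cycling cells and 1.97% lower, at a Benjamini-Hochberg adjusted p under 0.05. Of the 10 network genes, 2 were called higher, *Mxd3* and *Mycl*, and 0 lower, and 2 were called without the 3 clusters led by other types.

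*Mxd3*, the MXD member known from S-phase cells, rose in both tumors. It had 105 UMIs in the cycling and 3 in the non-cycling cells of TKO1, 91.0 CPM (74.4 to 110) against 2.07 CPM (0.426 to 6.04), and 352 and 2 UMIs in TKO2, 70.9 CPM (63.7 to 78.7) against 2.17 CPM (0.263 to 7.85). The log2 ratio was 5.46 (3.87 to 7.76) in TKO1 and 5.03 (3.16 to 8.08) in TKO2, and 5.22 in edgeR's fit (adjusted p = 1.9e-17). DESeq2 called it too (5.23, adjusted p = 1.2e-08). It was called in 11 of 12 alternatives, with an adjusted p from 7.0e-41 to 0.386, the last without the tumor term. TKO2, where the pooled level was higher, had 61.5% cycling cells against 28.9% in TKO1, and the part of that share in the difference between the tumors was not tested. Among cycling cells alone its level was higher in TKO1, with intervals that overlap.

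By phase, *Mxd3* was highest in the cells with at least 3 UMIs of G2/M genes. It had 2.72 CPM in cells with no cell cycle UMI, 20.5 CPM in S and 142 CPM in G2/M cells of TKO1. In TKO2 these levels were 2.96, 31.8 and 86.1 CPM. The intervals of the G2/M levels, 115 to 174 CPM in TKO1 and 76.6 to 96.4 CPM in TKO2, did not overlap. At 1000 UMIs, 14.6% of the G2/M cells of TKO1 (10.9 to 19.1) and 7.89% of those of TKO2 (6.45 to 9.53) held a UMI of *Mxd3*. Of the cells with no cell cycle UMI, 0 of 495 and 0 of 166 did, with intervals that end at 0.742% and 2.20%. The exons of *Mxd3* overlap those of *Prelid1* on the opposite strand, and reads of the 2 cannot be told apart there without strand. *Prelid1* was not higher in cycling cells, at 260 against 300 CPM in TKO1 and 234 against 262 CPM in TKO2.

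*Mycl* was called higher in cycling cells in the joint fit (log2 1.12, adjusted p = 3.2e-04), and the call rests on TKO1. There it had 361 CPM (328 to 398) in cycling and 104 CPM (88.1 to 122) in non-cycling cells, a log2 ratio of 1.80 (1.53 to 2.08). In TKO2 it had 33.2 CPM (28.4 to 38.7) and 37.0 CPM (25.6 to 51.6), a log2 ratio of -0.15 (-0.69 to 0.42). DESeq2 did not call it (adjusted p = 0.9998), nor did the fit on S genes alone (adjusted p = 0.158). Over all alternatives of edgeR and DESeq2 the adjusted p ran from 4.4e-07 to 0.9998, with a call in 9 of 12. The 9 include the fit without cluster 6, a cluster picked by its *Mycl* level. In TKO1 its level was 88.5 CPM with no cell cycle UMI, 192 CPM in S and 479 CPM in G2/M cells. In TKO2 these levels were 41.4, 30.7 and 34.1 CPM. After thinning, a UMI of *Mycl* was held by 5.86%, 11.9% and 20.4% of these cells in TKO1. In TKO2 the shares were 5.42%, 2.59% and 3.54%. The levels are sums, and most cells of each phase held no *Mycl* UMI after thinning, so a rise in every cycling cell is not shown. Without cluster 6, cycling cells of TKO1 had 274 CPM and non-cycling cells 37.0 CPM. The non-cycling cells of TKO2 had 37.0 CPM too, with overlapping intervals (27.4 to 48.7 and 25.6 to 51.6). These values follow from the choice of cluster 6 by *Mycl*, which took its UMIs from 151 to 50 in non-cycling and from 417 to 291 in cycling cells. Cluster 6 had *Mki67* at 16.4 CPM. Cluster 5, led by mitotic genes such as *Ube2c* and *Birc5* (*Mki67* at 392 CPM), stayed in.

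The genes whose levels followed *Mycl* most closely over the 16 clusters of tumor cells were *Ppie*, *Pabpc4* and *Akirin1*, with Pearson correlations of 0.95, 0.94 and 0.94 among 2516 genes compared. Levels were centred within each tumor, and the clusters share 2 libraries, so these are descriptions. All 3 genes lie after *Mycl* on chromosome 4, starting 125, 260 and 732 kb from its end. In TKO1, *Ppie* had 707 CPM in cycling and 220 CPM in non-cycling cells, *Pabpc4* 283 and 58.5 CPM, and *Akirin1* 516 and 228 CPM. In TKO2 the same pairs were 117 and 118 CPM, 81.2 and 89.1 CPM, and 63.3 and 51.1 CPM. Between *Pabpc4* and *Akirin1* lies *Macf1*, chosen after its values were seen, at 128 and 47.5 CPM in TKO1 and 27.2 and 33.7 CPM in TKO2. *Trit1*, chosen in the same way and the nearest of these at 14.1 kb, had 73.7 and 59.9 CPM in TKO1 and 18.1 and 10.9 CPM in TKO2. Without cluster 6 of TKO1, its levels there were 64.9 and 37.7 CPM. By cluster of TKO1, *Trit1* had 224 CPM in cluster 6 and 100 CPM in cluster 5, against 21.8 to 45.0 CPM in the others. In cluster 6, *Ppie* had 1906.5 CPM, *Pabpc4* 776 CPM, *Akirin1* 1333 CPM and *Macf1* 194 CPM.

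**Figure D4:**
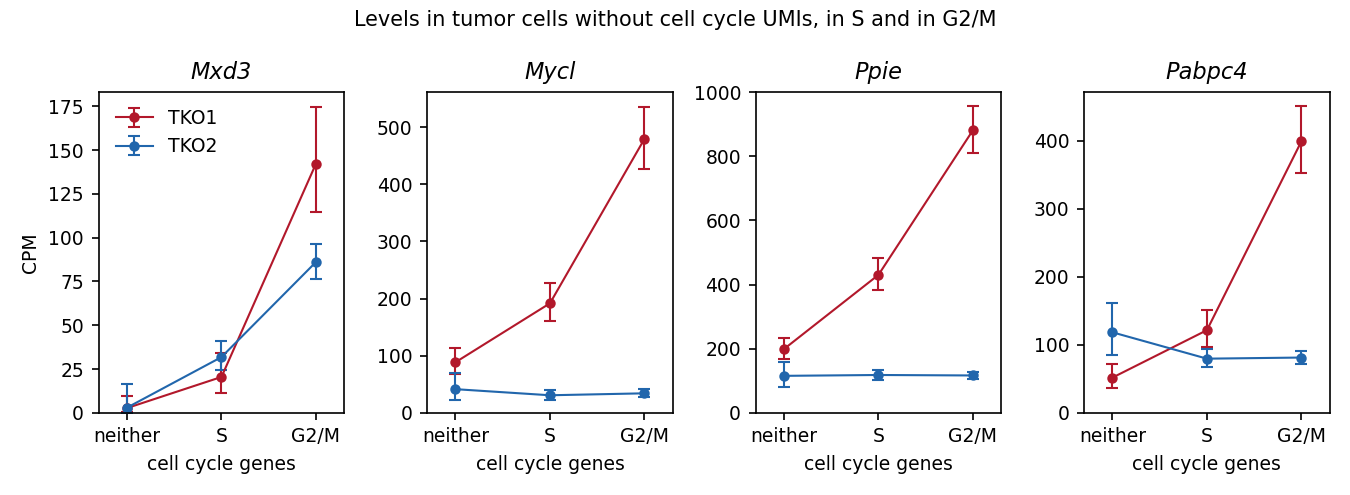
CPM of *Mxd3*, *Mycl* and 2 neighbours of *Mycl* in tumor cells with no cell cycle UMI, in S and in G2/M, for TKO1 (red) and TKO2 (blue), with exact 95% Poisson intervals that cover counting error only. *Mxd3* is highest in G2/M cells of both tumors (142 and 86.1 CPM), while *Mycl* is highest in G2/M cells of TKO1 (479 CPM) and lies between 30.7 and 41.4 CPM in TKO2.

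The other 8 genes were not called. *Mga* came nearest, at a log2 change of -0.48 in the fit (unadjusted p = 0.035, adjusted p = 0.247 by edgeR). Its level was 49.4 CPM in cycling and 67.5 CPM in non-cycling cells of TKO1 and 41.9 and 57.6 CPM in TKO2, so it was lower in cycling cells in both, with intervals of the ratio that held 0. *Max* was at -0.46 (-0.83 to -0.10) in TKO1 and -0.04 (-0.34 to 0.27) in TKO2, and *Mxd4* at -0.36 (-0.67 to -0.06) and 0.07 (-0.39 to 0.56) on the log2 scale. *Mlx*, *Mnt*, *Mxi1* and *Mxd1* had intervals that held 0 in both tumors. *Myc* had 9 UMIs in cycling and 18 in non-cycling cells of TKO1, 7.80 and 12.4 CPM, and 5 and 0 in TKO2, too few to compare. The median log2 change of all genes tested was -0.03.

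**Figure D5:**
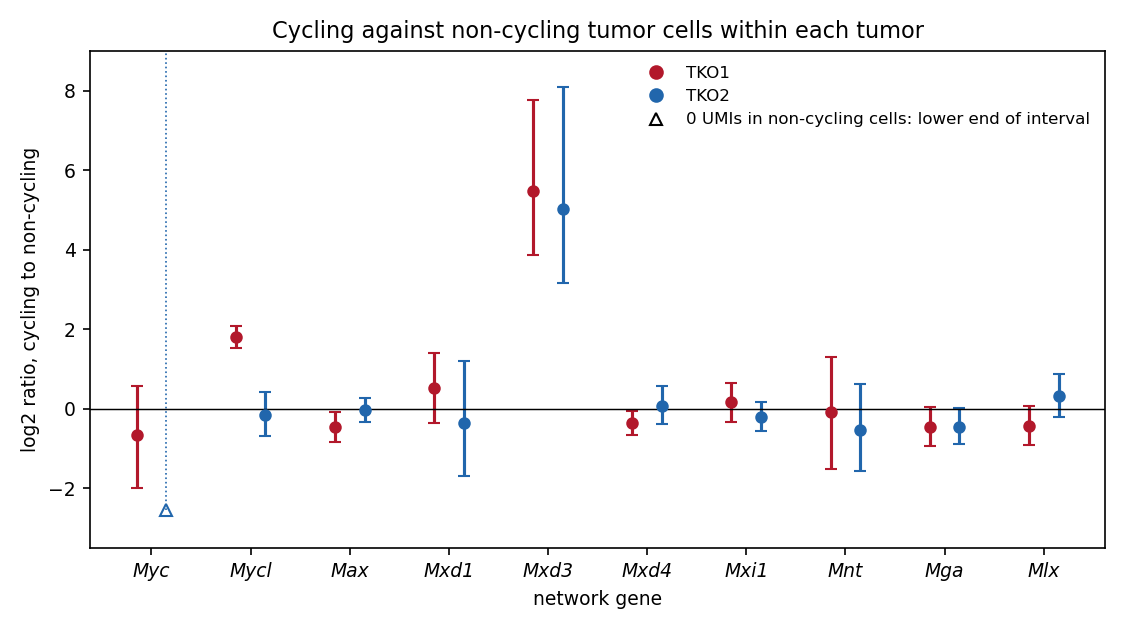
Log2 ratio of cycling to non-cycling tumor cells for each network gene, in TKO1 (red) and TKO2 (blue), with exact 95% intervals that cover counting error only; the open triangle is the lower end of the interval of *Myc* in TKO2, which had 0 UMIs in non-cycling cells. *Mxd3* stands at 5.46 and 5.03, *Mycl* at 1.80 in TKO1 and -0.15 in TKO2, and the other genes lie within 1 of 0 where a ratio could be formed.

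For the other genes, the patterns most like theirs over the clusters were named by the same measure. *Mxd3* was followed by *Racgap1*, *Ccna2* and *Birc5* (r = 0.98, 0.97 and 0.97), of which the last 2 are in the cell cycle list. *Mxd4* was followed by *Atp1b1*, *Cdh13* and *Igsf8* (0.92, 0.92 and 0.91), *Mxi1* by *Nras*, *Gsk3b* and *2310036O22Rik* (0.83, 0.80 and 0.79), and *Max* by *Txndc9*, *Sars* and *Pdcd2l* (0.78, 0.71 and 0.69). *Mga* had *Epn1*, *Ufm1* and *Rnf149* (0.77, 0.76 and 0.74) and *Mlx* had *Hoxb6*, *Gcat* and *Hiat1* (0.74, 0.67 and 0.65).

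The partners and targets of the network were described by lists, beside the all-gene shares of 31.2% higher in TKO1 and 12.3% higher in TKO2. Over the 7 lists, 77 genes were tested and 32 were past 2-fold between the tumors. Of the MYC target genes, many of which serve ribosome assembly, chaperones and nucleotide synthesis, 16 of 24 tested were at least 2-fold higher in TKO2 and 1 in TKO1. Their median log2 ratio was -1.26, against 0.37 for all genes, and with TMM factors 19 and 0 were past 2-fold and the median was -1.61 against 0.01. *Srm*, spermidine synthase, was at 120 CPM in TKO1 and 907 CPM in TKO2, and *Npm1*, the nucleolar chaperone, at 556 and 3048 CPM. *Ldha*, lactate dehydrogenase, stood the other way at 3495 and 2502 CPM, as did *Tfrc*, the transferrin receptor, at 35.96 and 17.9 CPM.

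Of the MLX and Mondo targets, 2 of 4 tested were at least 2-fold higher in TKO1 and 0 in TKO2, with a median of 1.09. With TMM factors these were 1 and 0 genes and 0.74, where 23.5% of all genes were at least 2-fold higher in TKO1. With 4 genes, the counts cannot set this list apart from the lean of all genes toward TKO1. *Txnip*, the glucose-responsive arrestin, had 168 CPM in TKO1 and 32.7 CPM in TKO2, *Klf10* had 85.2 and 36.2 CPM, and *Tkfc* 7.57 and 6.06 CPM. Of the 6 related network members, 0 were past 2-fold toward TKO1 and 1, *Mycn*, toward TKO2, with a median of 0.10 that turned to -0.25 with TMM factors, and *Usf2*, another E-box binding factor, had 119 and 61.7 CPM.

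Coactivators of MYC and MAX had 3 of 11 past 2-fold toward TKO2 and 0 toward TKO1, with a median of -0.57 (4 and 0 genes with TMM factors). *Ruvbl1* was at 45.9 and 136 CPM, *Ruvbl2* at 98.9 and 147 CPM, *Actl6a* at 129 and 295 CPM and *Trrap* at 24.8 and 15.3 CPM in TKO1 and TKO2. Corepressors of MXD and MNT had 2 of 11 toward TKO1 and 1 toward TKO2 (median 0.54). *Hdac1* had 163 and 46.5 CPM, *Hdac2* 236 and 362 CPM, *Rbbp7* 394 and 290 CPM and *Sap30* 126 and 269 CPM. In the complex of MGA, which shares *Hdac1*, *Hdac2* and *Wdr5* with the other lists, 4 of 13 were past 2-fold toward TKO1 and 1 toward TKO2 (median -0.15), 3 and 2 with TMM factors, with *Pcgf6* at 21.1 and 60.1 CPM and *Yaf2* at 150 and 215 CPM. Genes of MYC turnover had 2 of 11 toward TKO1 and 0 toward TKO2 (median 0.33), but with TMM factors 1 and 2, and the median turned to -0.03. *Fbxw7*, the ubiquitin ligase that recognises MYC, had 47.3 and 18.3 CPM, *Aurka* 50.4 and 100.3 CPM and *Stub1* 430 and 373 CPM.

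In cycling against non-cycling cells, 6 genes of these lists were called higher and 0 lower by edgeR. They were *Sap30* among the corepressors (log2 0.63, adjusted p = 0.011), *Aurka* (4.60, adjusted p = 1.3e-21) and *Skp2* (1.17, adjusted p = 0.023) among the turnover genes, and *Pcna* (0.94, adjusted p = 1.0e-05), *Pa2g4* (0.56, adjusted p = 0.029) and *Cdk4* (0.51, adjusted p = 0.031) among the MYC targets. *Skp2*, *Pcna*, *Pa2g4* and *Cdk4* are named after their values were seen. *Aurka*, a mitotic kinase, and *Pcna*, the replication clamp, are cell cycle genes in their own right and were kept out of the list that defined the classes. Over all genes, 4.53% were called higher and 1.97% lower. The counts by list were 1 of 11, 2 of 11 and 3 of 24, and 0 in the related members (5 tested), the coactivators (11), the complex of MGA (12) and the MLX and Mondo targets (3).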

How the data were processed

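For each tumor, the authors deposited a matrix of raw UMI counts, genes by barcodes, without normalization. The submitters' processing notes name Cell Ranger, Seurat and mm10, without versions. The values were used as deposited. Of the gene identifiers, 27645 matched GENCODE M21 (GRCm38). The 10 genes and all lists were chosen with earlier results of these data known.

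Barcodes with more than 500 genes and under 10% mitochondrial UMIs were retained (0 removed by the second). Each tumor was clustered in Seurat 5.3.0 (R 4.3.3) on 1000 variable genes, the network's genes and the genes of its lists left out, with 10 principal components and a resolution of 0.8. A cluster was named macrophage-like or club-like from at least 3 markers at least 4-fold above the other cells, and tumor cells from at least 3 neuroendocrine markers at least 2-fold above macrophage-like cells. In TKO2, 1 cluster held markers of both kinds and was left unnamed. Scrublet (scanpy 1.11.5) called 0 doublets and has not worked here, so doublets were kept, and cells above the 95th percentile of the score (109 and 127) were removed as an alternative.

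UMIs were summed per class and scaled by the class total to CPM. Intervals are exact at 95%, Poisson for levels, conditional binomial for log2 ratios and Clopper-Pearson for shares, and cover counting error only. A 0 was given a limit of 3 UMIs, per class. A gene was called past 2-fold with at least 10 UMIs over both sides, and a gene with 0 UMIs on one side only where that limit was past it. Cells were thinned with seed 1. Cycling cells (24 S and 30 G2/M genes) were tested with edgeR 4.0.16 (TMM, quasi-likelihood, tumor as a term), and with DESeq2 1.42.0 as an alternative. On counts simulated for this test over 9610 genes, 62.9% of planted log2 changes of 1 and 97.8% of changes of 2 were recovered. The simulation gave all genes the same fixed spread and planted the same change in both tumors. These shares therefore do not give the recovery on the real data. Other steps used Python 3.11.15, numpy 2.4.6, scipy 1.17.1, pandas 2.3.3 and matplotlib 3.10.9.

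All 10 genes are named. Of each list, up to 4 genes are named, those with the most UMIs and with the largest ratio either way. The values of 1 gene that this rule names are not reported here. For a gene of at least 20 CPM in a tumor, the 3 genes with the highest Pearson correlation of log2(CPM + 10) over tumor clusters are named, among genes that reach 50 CPM in each tumor. Others are named with the words that they were chosen after their values were seen. Alternatives covered filters, scaling, clustering, doublets, depth and the cycling rule. Removing clusters led by markers of other types or by *Mycl* or *Vwf* was added after seeing the data.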

Additional observations from a re-analysis of the deposited data

Results flagged for a closer look

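*Mycl* and *Mxd4* stood out because their ratios of cycling to non-cycling cells had opposite signs in the tumors, with an interval that excluded 0 in one of them; the difference itself was not tested. For *Mycl* the log2 ratio was 1.80 in TKO1 and -0.15 in TKO2, a difference of 1.95. For *Mxd4* it was -0.36 in TKO1 and 0.07 in TKO2, a difference of -0.43, and the intervals of the 2 tumors overlap.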

How the results depend on the processing

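TMM factors kept the count of genes past 2-fold in club-like cells at 3, but of the original 3 only *Mycl* was among them. Between the tumors, 4 genes were past 2-fold under each alternative but a minimum of 50 UMIs, which drops *Myc* and leaves 3. No paired analysis was possible because each group is 1 library, so no replicate numbers pair the tumors. The cycling fit is blocked by tumor. The count of genes called with cycling, 2, was 1 with DESeq2, 1 with S genes alone and 0 without the tumor term, where 0 of all genes were called (199 at an unadjusted p under 0.05). *Mycl* ran from -0.15 to 1.80 when one tumor was left out. The count of genes seen in at least 5% of cells, 6, was 3 at 500 UMIs per cell and 7 at 2000, and the 3 genes with ranges apart were 1 at a resolution of 1.2. All-gene shares beside these alternative counts are not given. Signs turned for uncalled changes with cycling: *Myc* 0.21 with DESeq2, *Mxd1* -0.44, *Mnt* 0.71 and *Mxi1* 0.28 with G2/M genes alone, and *Mxi1* 0.00688 with 8 or more cell cycle UMIs and 0.023 without a filter on low counts. With barcodes of more than 200 genes, which changes the clusters, macrophage-like cells gave -0.84 for *Myc* in TKO1 and -0.48 for *Mxd1* in TKO2. The cause was not tested. All genes called with cycling numbered 430 higher and 187 lower, against 162 and 20 with DESeq2 and 145 and 26 with S genes alone. Levels in macrophage-like and club-like cells rest on few UMIs.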

Other observations

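A cluster of 66 cells in TKO2 held club cell and neuroendocrine markers together and entered none of the named classes. Its *Mxd4* level was 201 CPM from 24 UMIs, against 53.4 CPM in the tumor cells of TKO2, a log2 ratio of 1.91 (1.25 to 2.51), and close to the 198 CPM of the club-like cells of TKO1. *Mycl* had 83.7 CPM from 10 UMIs (1.31, 0.23 to 2.21) and *Myc* 33.5 CPM from 4 UMIs (5.44, 3.17 to 7.51). *Mxd3* had 1 UMI, a ratio of -2.58 (-7.88 to -0.09).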
